A study of Rattus norvegicus with 9 samples.

Results

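Histone transcripts were followed in 4T1 cells, a mouse mammary carcinoma line, after nanoparticles of molybdenum disulfide with or without near-infrared light. The members are the genes whose symbol in the deposited table starts with H1f, H2ac, H2aw, H2bc, H3c or H4c. The rule found 12 of 2392 genes: the linker histone genes H1f2 and H1f0, 6 genes of core histone H2A (H2aw, H2ac18, H2ac24, H2ac12, H2ac14 and H2ac6) and 4 genes of core histone H2B (H2bc8, H2bc3, H2bc4 and H2bc6). Among the rows analysed here 0 symbols started with H3c and 0 with H4c. The 9 libraries fall into 3 groups of 3: cells given the particles and near-infrared light (MoS2_NIR), cells given the particles without light (MoS2), and cells in medium alone (Control). All were 4T1 cells in high-glucose DMEM with fetal bovine serum and antibiotics, and the labels state neither a particle dose, a light dose nor a time of harvest. No group received light without particles, so light by itself and light acting on particles cannot be told apart. Whether libraries of 1 group were grown as separate cultures is not given, so a p-value here speaks only of the spread among libraries, which may be technical. Mouse genes are described, as the cell line and the gene identifiers are those of the mouse, although the labels enter the organism as rat.

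Core histones form the protein spool around which DNA is wound, and linker histones of the H1 family bind where DNA enters and leaves it. Most H2A, H2B and H1 genes, H1f2 among them, are replication-dependent: they sit in clusters of near-identical copies, are transcribed mainly in S phase, and give messages that end in a stem-loop in place of a poly(A) tail. Their messages are made ready by dedicated factors such as the U7 ribonucleoprotein and are degraded quickly when DNA synthesis stops. H1f0 is different: it is a lone gene with a polyadenylated message that is made outside S phase and accumulates in resting and differentiated cells. The labels describe the RNA as polyadenylated, so the values count those histone messages that such a selection retains, and how large a part of all histone messages this is was not measured. Reads of the clustered genes may be split or shared between close copies, so the level of each clustered gene is uncertain.

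The family was chosen by its symbols, and for description because the levels of H1f2 and H2aw had been seen among the largest decreases of MoS2_NIR against Control. Its values in that comparison, and in MoS2_NIR against MoS2, which uses the same irradiated libraries, are therefore given as a description without p-values. MoS2 against Control was not used to choose the family but shares the Control libraries with the first comparison. High values in those libraries would have helped the choice. The p-values of the genes named then (H1f2, H2aw and H2bc8) in MoS2 against Control, and the count of members called, may thus be too favourable. The table is itself a selection by the authors under a rule that is not stated: 2096 of the 2389 genes with recovered values differed at least 2-fold between the highest and lowest group mean. The values have no stated unit, and depth is unknown. Their median over all genes was 3.19 to 3.26 in the MoS2_NIR libraries, 1.97 to 2.07 in MoS2 and 1.63 to 1.98 in Control, so scaling matters. The median log2 fold change of the 1748 tested genes for MoS2_NIR against Control was 1.01 with the values as recovered, 0.44 after quantile normalization and 0.14 after median-ratio scaling. Of 11 markers of 4T1 and epithelial cells, 4 were among the rows analysed and 3 were tested. In MoS2_NIR against Control 2 of these were called lower and 1 higher, beside 33.9% and 63.5% of all tested genes. Lcn2 was 98.9 ± 8.79 in MoS2_NIR, 233.3 ± 8.05 in MoS2 and 399.3 ± 20.2 in Control (SD, n = 3 each). The osteopontin gene Spp1 was 560.4 ± 28.4 in MoS2_NIR, 962.2 ± 30.1 in MoS2 and 1241.9 ± 43.4 in Control (SD, n = 3 each), and the growth factor gene Csf3 went the other way, with 172.4 ± 34.7 in MoS2_NIR, 118.4 ± 4.75 in MoS2 and 63.0 ± 0.878 in Control, though with median-ratio scaling it was not called (0.25 on the log2 scale, limma adjusted p = 0.0892). Of 8 fibroblast markers 2 were present, Postn and Col1a1, with a summed level of 0.67 to 1.01 in MoS2_NIR, 2.44 to 3.5 in MoS2 and 4.4 to 5.26 in Control. This sum moved in the same direction as the histone genes, and its part in their change was not tested. Of 9 leukocyte and 3 endothelial markers 0 were among the rows.

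Every one of the 12 histone genes had lower values in all 3 MoS2_NIR libraries than in all 3 Control libraries. Over these 12 the mean after light, as a share of the Control mean, ran from 7.9% for H2ac14, which was listed at 0 in 2 of the irradiated libraries, and 9.88% for H1f2 to 53.6% for H2ac24. Of the 12 genes 10 reached a value of 1 in 3 or more libraries and entered the test, and H2ac6 and H2bc6 did not. With limma across the whole table (Benjamini-Hochberg adjusted p under 0.05) 10 of 10 were called lower and 0 higher in MoS2_NIR against Control. Of all tested genes 33.9% were called lower and 97.4% were called in either direction, and H2ac14 passed the limit on low values through its Control and MoS2 libraries, so nothing is read from this count. Groups did not overlap, with MoS2_NIR lower, in 33.0% of all tested genes, and 63.5% were called higher. For the replication-dependent genes, fewer cells in S phase and fewer histone messages per cell cannot be told apart in these bulk libraries. The share of their messages that poly(A) selection retains was not measured in any group.

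**Figure D1:**
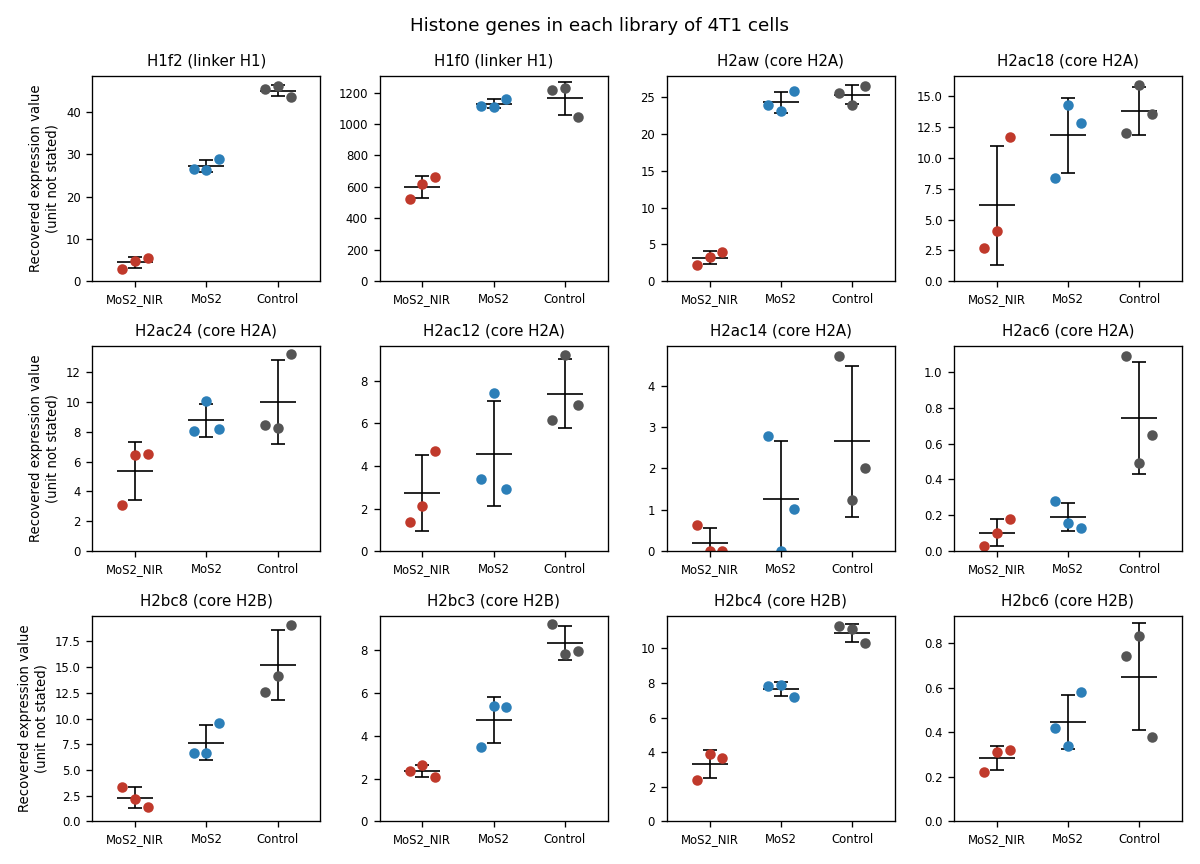
Recovered expression value (unit not stated) of the 12 histone genes in each library, with MoS2_NIR, MoS2 and Control from left to right; each dot is a library, the long bar is the group mean and the whiskers are 1 SD (n = 3). Each axis starts at 0, and in every panel the 3 MoS2_NIR dots lie below the 3 Control dots, while in H2ac18, H2ac12, H2ac14 and H2ac6 they overlap with MoS2.

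H1f2 (ENSMUSG00000036181) encodes the linker histone H1.2. Its values were 2.97, 4.81 and 5.58 in MoS2_NIR, 26.5, 26.2 and 28.8 in MoS2, and 45.4, 46.1 and 43.6 in Control. The 3 groups formed separate steps with no overlap between any of them. The MoS2 mean was 60.3% of the Control mean, and the MoS2_NIR mean was 16.4% of the MoS2 mean. The log2 fold change was -3.11 (SE 0.16) for MoS2_NIR against Control and -2.40 (SE 0.16) for MoS2_NIR against MoS2. With particles alone H1f2 was lower than in Control, with a log2 fold change of -0.71 (SE 0.16, limma adjusted p = 0.00579).

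H1f0 (ENSMUSG00000096210), the linker histone H1.0 of resting cells, had 526.1, 617.6 and 662.4 in MoS2_NIR, 1112.7, 1110.2 and 1160.3 in MoS2, and 1216.3, 1230.6 and 1042.3 in Control. The irradiated libraries lay below all others, and the MoS2 libraries lay inside the range of Control. The replication-independent member also fell with light, with a mean of 51.8% of Control and 53.4% of MoS2. Its log2 fold changes were -0.95 (SE 0.10) for MoS2_NIR against Control and -0.91 (SE 0.10) for MoS2_NIR against MoS2. After median-ratio scaling they were -2.13 and -1.67, and the mean was 23% of Control. For MoS2 against Control the log2 fold change was -0.04, with a 95% confidence interval of -0.25 to 0.17 (limma adjusted p = 0.723). That near-zero value depended on the scaling: it was 0.05 after quantile normalization, while after median-ratio scaling it was -0.46 and H1f0 was called lower (limma adjusted p = 0.00449).

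H2aw (ENSMUSG00000078851), an H2A gene, was far lower with particles and light, while with particles alone it was not called with the values as recovered. It had 2.26, 3.3 and 3.99 in MoS2_NIR, 23.9, 23.1 and 25.8 in MoS2, and 25.6, 23.9 and 26.5 in Control. The MoS2 and Control libraries overlapped, and the irradiated ones lay far below both. The MoS2_NIR mean was 12.6% of Control and 13.1% of MoS2, with log2 fold changes of -2.67 (SE 0.14) and -2.61 (SE 0.14). For MoS2 against Control the log2 fold change was -0.06 (95% confidence interval -0.38 to 0.26, limma adjusted p = 0.742). After median-ratio scaling this became -0.46 and a call (limma adjusted p = 0.0311); after quantile normalization H2aw was not called.

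The clustered H2A genes varied more between libraries. H2ac18 (ENSMUSG00000064220) had 2.73, 4.05 and 11.7 in MoS2_NIR, 8.41, 14.3 and 12.8 in MoS2, and 12.1, 15.9 and 13.5 in Control. MoS2_NIR replicate 3 lay among the MoS2 libraries, and without it the mean after light was 3.39 in place of 6.16. The log2 fold change for MoS2_NIR against Control was -1.25 (SE 0.42), a call that ended without Control replicate 2 (-1.15) or MoS2_NIR replicate 2 (-1.10). H2ac24 (ENSMUSG00000094777) had 3.11, 6.42 and 6.52 in MoS2_NIR, 8.02, 10 and 8.19 in MoS2, and 8.45, 8.27 and 13.2 in Control. Its irradiated libraries lay below all others, and its log2 fold change against Control was -0.81 (SE 0.25), or -0.53 without MoS2_NIR replicate 1. After quantile normalization this was -1.46 and after median-ratio scaling -1.81.

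H2ac12 (ENSMUSG00000069302) had 1.37, 2.12 and 4.73 in MoS2_NIR, 3.38, 7.44 and 2.94 in MoS2, and 6.14, 9.22 and 6.85 in Control. Its MoS2 libraries spread across both other groups, and without MoS2_NIR replicate 3 the mean after light was 1.75 in place of 2.74. The log2 fold change for MoS2_NIR against Control was -1.25 (SE 0.37). H2ac14 (ENSMUSG00000080076) was listed at 0.63, 0 and 0 in MoS2_NIR, 2.78, 0 and 1.01 in MoS2, and 4.71, 1.24 and 2.02 in Control. Its call in MoS2_NIR against Control (log2 fold change -1.52, SE 0.53) ended without Control replicate 1 (-1.14) or without MoS2_NIR replicate 2 or 3 (-1.40 each). H2ac6 (ENSMUSG00000069270), below the limit on low values, had 0.03, 0.1 and 0.18 in MoS2_NIR, 0.28, 0.16 and 0.13 in MoS2, and 1.09, 0.49 and 0.65 in Control. Here the particle-treated libraries already lay below all Control libraries.

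The H2B genes stepped down more evenly. H2bc8 (ENSMUSG00000058385) had 3.36, 2.13 and 1.37 in MoS2_NIR, 6.69, 6.6 and 9.61 in MoS2, and 12.5, 14.1 and 19.1 in Control. H2bc3 (ENSMUSG00000075031) had 2.34, 2.64 and 2.06 in MoS2_NIR, 3.5, 5.38 and 5.34 in MoS2, and 9.25, 7.81 and 7.99 in Control. H2bc4 (ENSMUSG00000018102) had 2.41, 3.89 and 3.69 in MoS2_NIR, 7.83, 7.91 and 7.2 in MoS2, and 11.3, 11.1 and 10.3 in Control. In all 3 genes the 3 groups were fully separate, with MoS2 between MoS2_NIR and Control. The MoS2_NIR mean was 15% of the Control mean for H2bc8, 28.1% for H2bc3 and 30.6% for H2bc4. Their log2 fold changes for MoS2_NIR against Control were -2.33 (SE 0.23), -1.48 (SE 0.15) and -1.48 (SE 0.14). H2bc6 (ENSMUSG00000047246), below the limit on low values, had 0.22, 0.31 and 0.32 in MoS2_NIR, 0.42, 0.34 and 0.58 in MoS2, and 0.74, 0.83 and 0.38 in Control.

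The question of the MoS2 and Control groups is what the particles do before light is added. With particles alone 4 of the 10 tested histone genes were called lower and 0 higher, and over all tested genes 16.8% were called lower and 30.1% higher. The MoS2 libraries lay wholly below the Control libraries in the same number, 4 of 10, and in 20.6% of all tested genes. The 4 were H1f2 and the H2B genes H2bc8, H2bc3 and H2bc4. As H1f2 and H2bc8 were named when the family was put forward, from a comparison with the same Control libraries, this count and their p-values may be too favourable. The log2 fold change was -0.91 for H2bc8 (SE 0.23, limma adjusted p = 0.011) and -0.72 for H2bc3 (SE 0.15, limma adjusted p = 0.00452). It was -0.46 for H2bc4 (SE 0.14, limma adjusted p = 0.0206), and this call ended without Control replicate 1 (limma adjusted p = 0.0556) or MoS2 replicate 3 (0.0643). With the values as recovered the 5 tested H2A genes were not called, H2aw included. Their confidence intervals were wide for H2ac18 (-1.21 to 0.74), H2ac12 (-1.51 to 0.20) and H2ac14 (-2.01 to 0.44), so decreases like those of the H2B genes were not detectable with this spread. H2ac12, with a log2 fold change of -0.66 (limma adjusted p = 0.172), was called lower only without MoS2 replicate 2 (limma adjusted p = 0.048) or after median-ratio scaling. After median-ratio scaling 7 of the 10 were called lower, with H1f0, H2aw and H2ac12 added, when 32.7% of all tested genes were.

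With light added to cells with particles, 8 of the 10 tested histone genes were called lower and 0 higher. Of all tested genes 25.4% were called lower and 61.7% higher. The groups did not overlap, with MoS2_NIR lower, in 7 of the 10 histone genes and in 25.7% of all tested genes. Nothing is read from these counts, as the comparison uses the irradiated libraries by which the family was chosen. H2ac12 (log2 fold change -0.59, SE 0.37) and H2ac14 (-0.74, SE 0.53) were not called, and leaving out MoS2_NIR replicate 3 for H2ac12 (-0.95) or MoS2 replicate 2 for H2ac14 (-1.23) gave a call. Both rescalings also gave a call of H2ac12, at -1.10 with median ratios and -1.05 with quantiles. The call of H2ac18 (-1.02, SE 0.42) ended without any 1 library other than MoS2 replicate 1 and MoS2_NIR replicate 3, with values of -1.02 to -0.65, and also when only these 2 groups were fitted. It was -1.53 without MoS2_NIR replicate 3. The call of H2ac24 (-0.66, SE 0.25) ended without MoS2 replicate 2 (-0.57) or MoS2_NIR replicate 1 (-0.38). Set side by side, the light step and the particle step were -0.76 and -0.72 for H2bc3, -1.42 and -0.91 for H2bc8, and -1.01 and -0.46 for H2bc4. For H1f2 the light step was -2.40 against -0.71, and for H2aw it was -2.61 against -0.06. After median-ratio scaling the light and particle steps were -1.27 and -1.10 for H2bc3, -1.58 and -0.85 for H2bc4, and the particle step of H1f2 was -1.12. The steps share the MoS2 libraries, and the difference between genes in these steps was not tested.

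**Figure D2:**
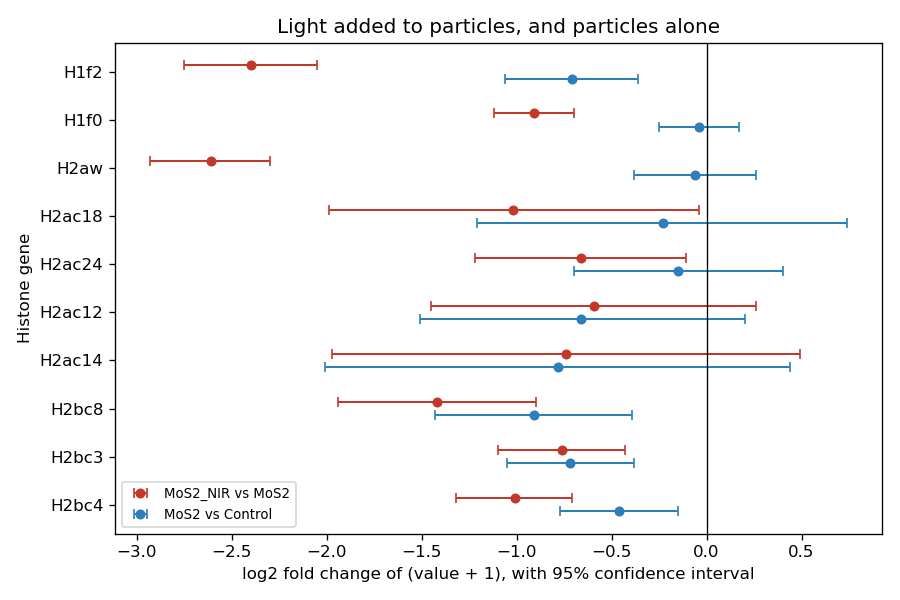
Log2 fold change of (value + 1) with its 95% confidence interval for the 10 tested histone genes, for MoS2_NIR against MoS2 (red) and MoS2 against Control (blue), from limma with n = 3 libraries a group. H2aw and H1f0 sit at -2.61 and -0.91 for light and near 0 for particles with the values as recovered (-0.46 each after median-ratio scaling), while H2bc3 sits at -0.76 and -0.72.

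Among all 1748 tested genes the log2 fold changes of MoS2_NIR against Control formed 2 heaps, with 65 genes within 0.5 of no change. The histone genes lay in the lower heap or below it. Counted from the lowest log2 fold change, H1f2 was at rank 4 of all tested genes, H2aw at rank 7 and H2bc8 at rank 14. The other tested members ranked from 75 to 380. Nothing is read from these ranks, which belong to the comparison by which the family was chosen. H2bc8 was named along with H1f2 and H2aw when the family was put forward. The median log2 fold change of the 10 tested members was -1.48, beside 1.01 for all tested genes. Without the limit on low values it was -1.36 for all 12, beside 0.62 for 2389 genes. After median-ratio scaling the medians were -2.31 and 0.14, and all 10 tested members were called lower under either scaling. Both scalings lower the median over all tested genes here and so favour calls of a lower level, and nothing is read from these calls.

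**Figure D3:**
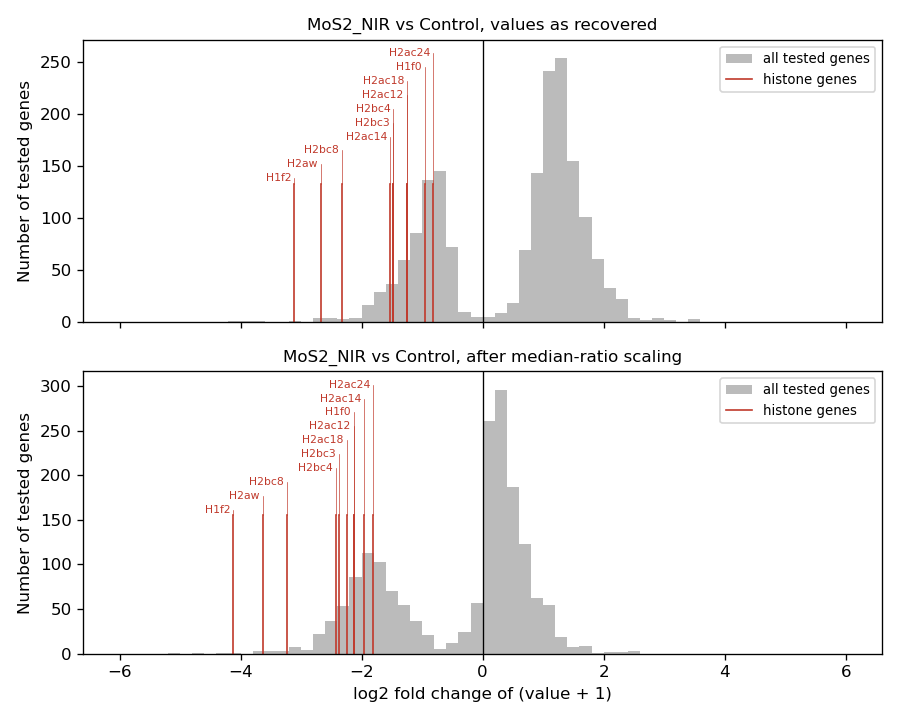
Histograms of the log2 fold change of (value + 1) for MoS2_NIR against Control over all 1748 tested genes (grey, number of genes on the vertical axis), with the 10 tested histone genes marked in red. The upper panel uses the values as recovered and the lower panel median-ratio scaling, which shifts both heaps to the left; H1f2, H2aw and H2bc8 lie to the left of the lower heap in both.

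The irradiated libraries were not ordered alike in all genes. MoS2_NIR replicate 1 had the lowest of the 3 irradiated values in 7 of the 10 tested members, among them H1f2, H1f0, H2aw and H2bc4. MoS2_NIR replicate 3 had the highest value in 6 of 10. H2bc8 went the other way, with 3.36 in replicate 1 and 1.37 in replicate 3. Against Control, 10 of 10 members were called lower without MoS2_NIR replicate 1, 8 without replicate 2 and 9 without replicate 3. Nothing is read from these counts, which belong to the comparison by which the family was chosen.

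Another 3 histone rows of the table fell outside the naming rule. H2ax (ENSMUSG00000049932) encodes the H2A variant that is phosphorylated at DNA breaks, and its message occurs with and without a poly(A) tail. It had 66, 80.2 and 72.2 in MoS2_NIR, 40.5, 43.4 and 48.9 in MoS2, and 22, 22.4 and 19 in Control. The 3 groups were separate, in the order opposite to that of H1f2 and the H2B genes. H2ax rose with particles alone by a log2 fold change of 1.03 (SE 0.11, limma adjusted p = 0.00019) and with particles and light by 1.74 (SE 0.11, limma adjusted p = 2.16e-07). After median-ratio scaling these were 0.63 and 0.59, both still called, while MoS2_NIR against MoS2 was -0.04 in place of 0.71 and was not called (limma adjusted p = 0.717). H2bu2 (ENSMUSG00000056895), an H2B gene, had 0, 0.15 and 0 in MoS2_NIR, 1.22, 1.05 and 0.35 in MoS2, and 1.09, 1.11 and 1.09 in Control. The H2B pseudogene H2bu1-ps was listed at 0 in all 3 MoS2_NIR libraries, at 0, 1.2 and 1.97 in MoS2, and at 0.82, 2.47 and 1.42 in Control. In both H2B rows no irradiated library lay above any of the MoS2 or Control libraries.

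Genes that serve histone supply went the other way from the histone genes, with the values as recovered. Of 25 genes of histone mRNA synthesis and processing 4 were tested, of which 4 were higher and 0 lower in MoS2_NIR against Control, beside 63.5% of all tested genes called higher. They were Lsm10, a subunit of the U7 ribonucleoprotein, Zfp473 and Casp8ap2, which act with it in cutting histone messages in human cells, and the cleavage factor gene Cstf2t. Lsm10 was 11.3 ± 1.10 in MoS2_NIR, 5.74 ± 1.02 in MoS2 and 4.35 ± 0.739 in Control (SD, n = 3 each). Casp8ap2 varied widely after light, with 6.83, 6.32 and 19.4 in the MoS2_NIR libraries. Median-ratio scaling left 1 of these 4 genes called higher in MoS2_NIR against Control, beside 32.3% of all tested genes. Of 24 histone chaperones 3 were tested and 3 were higher. Asf1b hands the core histones H3 and H4 to the replication machinery, whereas the core members followed here are H2A and H2B genes. Its level was 83.7 ± 0.819 in MoS2_NIR, 50.6 ± 5.48 in MoS2 and 30.6 ± 1.32 in Control. The others were Hira and Ubn1, of the complex that deposits a replication-independent H3 variant. Of 46 DNA replication genes 3 were tested and 3 were higher: Fen1, the nuclease that trims lagging strand fragments, Orc1 of the origin recognition complex, and Gins3 of the replicative helicase. Fen1 was 32.7 ± 2.53 in MoS2_NIR, 17.5 ± 0.441 in MoS2 and 7.74 ± 0.875 in Control. With particles alone 3 of these 3 replication genes were higher, as were 2 of 3 chaperones and 0 of 4 processing genes, beside 30.1% of all tested genes. After median-ratio scaling 2 of 3 replication genes, 1 of 3 chaperones and 0 of 4 processing genes were called higher, beside 8.58% of all tested genes.

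Of 26 cyclins and regulators of S phase entry 8 were tested, and all 8 were higher in MoS2_NIR against Control, with 2 higher after particles alone, where 30.1% of all tested genes were. The repressor E2f8, itself switched on in S phase, was 26.9 ± 0.644 in MoS2_NIR, 9.58 ± 0.752 in MoS2 and 5.03 ± 1.14 in Control. Ccnd2, the gene of cyclin D2, was 32.3 ± 4.03 in MoS2_NIR, 19.5 ± 0.428 in MoS2 and 14.1 ± 4.18 in Control. Of 12 genes of cleavage and polyadenylation 3 were tested and 3 were higher: Cstf1, Pcf11 and Clp1. Cstf1, the highest by mean level, was 33.4 ± 0.282 in MoS2_NIR, 23.6 ± 1.44 in MoS2 and 15.2 ± 0.925 in Control. Clp1 had the largest log2 fold change of the 3 in MoS2_NIR against Control, 1.82 as recovered and 0.89 after median-ratio scaling. These directions depended on scaling far more than those of the histone genes. Together with H2ax the 5 lists held 22 tested genes besides the histone members. Of these 22 were higher in MoS2_NIR against Control with the values as recovered, 19 after quantile normalization and 8 after median-ratio scaling, and 0 were lower under any of the 3. Over all tested genes the share called higher was 63.5% as recovered, 56.4% after quantile normalization and 32.3% after median-ratio scaling. The log2 fold change turned negative after median-ratio scaling for Hira (-0.12), E2f7 (-0.18), Ccne2 (-0.08), Cstf1 (-0.04) and Pcf11 (-0.40). For Pcf11 it was also negative after quantile normalization (-0.01). With particles alone 10 of the 22 were higher and 0 lower as recovered, beside 30.1% and 16.8% of all tested genes. Quantile normalization gave 9 higher and 1 lower, beside 23.2% and 20.8%. Median-ratio scaling gave 6 higher and 2 lower, beside 8.58% and 32.7%. The genes called lower were Pcf11 with quantiles (-0.53), and Ccne2 (-0.37) and Pcf11 (-0.77) with median ratios.

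**Figure D4:**
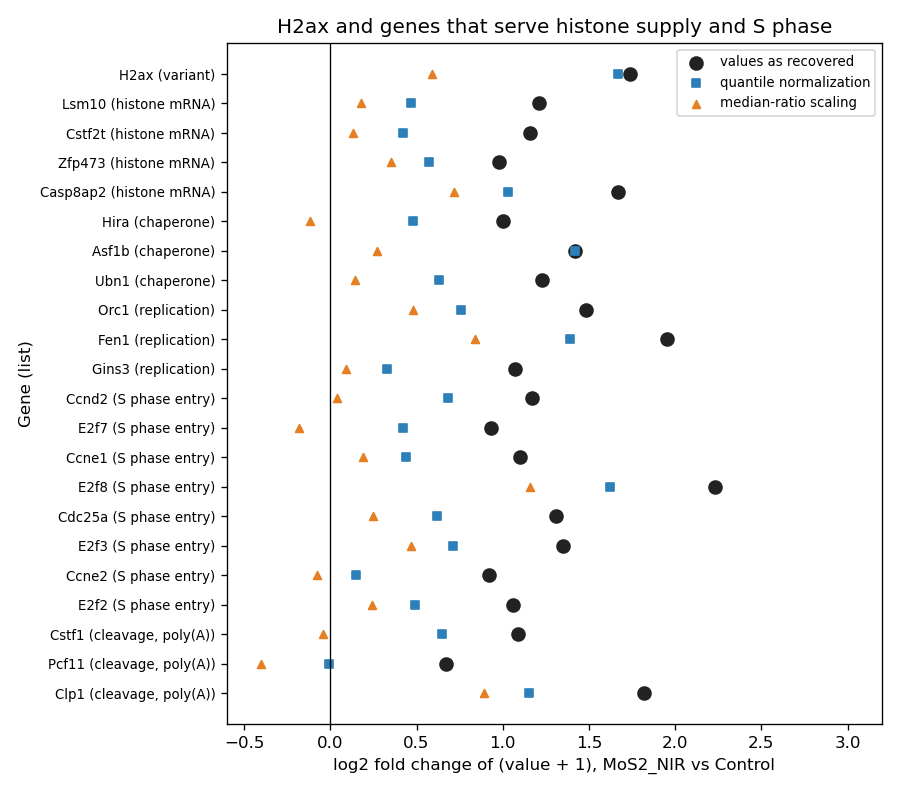
Log2 fold change of (value + 1) for MoS2_NIR against Control of H2ax and of 21 tested genes of histone mRNA processing, histone chaperones, DNA replication, S phase entry and message cleavage, with the values as recovered (black), after quantile normalization (blue) and after median-ratio scaling (orange). All 22 lie above 0 as recovered, and Hira, E2f7, Ccne2, Cstf1 and Pcf11 lie below 0 after median-ratio scaling.

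The genes outside the family whose log2 values over the 9 libraries were most like those of H1f2 were Fas (Pearson r = 0.996), Nr1d1 (0.994), Scx (0.994), Anxa8 (0.991) and Tnnt2 (0.991). Fas, a death receptor gene, was 8.88 ± 1.66 in MoS2_NIR, 20.7 ± 1.29 in MoS2 and 27 ± 0.954 in Control (SD, n = 3 each). Of 1419 tested genes compared in this way 93 had a correlation of at least 0.95, so a high value is not particular to the genes named here. Within the family the correlation with H1f2 over the same 9 libraries was 0.988 for H2bc4, 0.979 for H2aw and 0.975 for H1f0, and 0.655 for H2ac14, the lowest. These correlations include the differences between the groups, and H1f2 and H2aw were both picked for the same decrease, so nothing is read from them.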

How the data were processed

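Poly(A) RNA of 9 libraries of 4T1 cells was sequenced. Tools named in the submitters' processing notes are Cufflinks 2.1.1, Bowtie 0.12.9 and HTSeq, with mm10 as build and no step given. The deposited table holds 1 score per gene and library, standardized per gene over the libraries by the authors. For each gene, values with a step of 0.01 were sought whose natural logarithm, after adding 1, returns the scores within 3e-09, and the smallest whole-number solution was taken. It was found for 2389 genes (99.87%), all 12 histone genes among them. Tested on simulated data, the search returned 400 of 400 genes correctly and accepted 0 of 60 random score sets. The random sets were searched over far fewer candidates than the genes could be, so false acceptance at the full setting was not measured. Of 146 genes with 3 or more libraries tied lowest, 133 had a lowest value of 0. The unit is not stated and depth is unknown, so no counting interval is given.

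Tested were the 1748 genes reaching a value of 1 in 3 or more libraries, and 641 stayed below. Log2 (value + 1) was analysed in R 4.3.3 by limma 3.58.1 with trend and robust moderation, all 9 libraries in 1 fit (6 residual degrees of freedom), without further scaling. Fold changes on this scale understate those of low genes, and means and SD refer to the values themselves. The family, the lists and the naming rule (all members, up to 4 genes of each list by mean level, the 5 genes most like H1f2 without predicted or Rik genes) were chosen with earlier results of these data known. H2bu2, H2bu1-ps, and Ccne2 among the genes that turned with scaling, stand outside that rule and were named after their values were seen. Alternatives were other pseudocounts, no limit on low values, 2 scalings, no moderation options, fits of 2 groups, the deposited scores themselves, a replicate block, and each library left out. Only rat sequence tables were at hand, so no mouse sequence or position is given.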

Additional observations from a re-analysis of the deposited data

How the results depend on the processing

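All 10 tested histone genes were called lower in MoS2_NIR against Control under every alternative with all libraries, and 12 of 12 without a limit on low values. With 1 library left out the number was 8 to 10. For MoS2_NIR against MoS2 it was 8, and 6 to 9 with 1 library left out. For MoS2 against Control it was 4, and 3 to 5 with 1 library left out, but 7 after median-ratio scaling. Calls of a higher level were 0 in every setting run. The log2 fold change of single genes changed sign only where it was near 0 in MoS2 against Control: H1f0 was 0.05 after quantile normalization and 0.00 without Control replicate 2, and H2ac24 was 0.05 without Control replicate 3. Across the libraries left out in turn H1f0 ranged from -0.12 to 0.00 and H2ac24 from -0.26 to 0.05. Median-ratio scaling, which takes the typical gene of the table as unchanged, gave larger decreases in MoS2_NIR against Control for all 10. Like quantile normalization, it lowers the median of all tested genes in this comparison, so lower calls kept under either are no check on a decrease. A pseudocount of 5 gave smaller decreases except for H1f0, such as -1.47 in place of -2.33 for H2bc8. A pseudocount of 0.1 gave -3.62 for H2ac14 in place of -1.52. Replicate numbers did not pair the libraries: deviations of same-numbered libraries correlated at -0.081 to 0.1, and 4 of 9 libraries were closest to their own number. With a replicate block the members called lower were 10 in MoS2_NIR against Control, 9 in MoS2_NIR against MoS2 and 5 in MoS2 against Control, the gene added in the last 2 being H2ac14 (-0.74 against MoS2; -0.78 for MoS2 against Control, limma adjusted p = 0.0193, or 0.242 without the block). Of 540 single-gene values under alternatives, 510 kept direction and call, 17 lost a call, 10 gained one and 3 changed sign.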
